A study of Mus musculus with 6 samples.

Results

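The entries mmu-miR-5100, mmu-miR-1983 and mmu-miR-1195 (mmu for mouse, left off below) are 3 of the 685 mature mouse miRNAs listed in a small RNA sequencing experiment. They were picked by name, as entries thought to resemble tRNA, and with the difference of miR-5100 between the study's groups already known, so the values of that comparison are given below as a description. The RNA came from N2a cells, an established mouse neuroblastoma line, that had been turned into neuron-like cells with 10 µM retinoic acid over 96 h. One group then received 5 µM RSL3 for 24 h and the other the matching amount of its solvent DMSO, with 3 libraries in each. RSL3 blocks GPX4, the enzyme that reduces lipid peroxides, and is used to bring about the iron-dependent cell death known as ferroptosis. Retinoic acid was common to both groups, so the comparison is between RSL3 and DMSO in differentiated cells. The labels name the cell type as neuron, all libraries are from 1 cell line, and whether the 3 libraries of a group came from separate cultures is not stated, so their spread may be technical.

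Transfer RNAs are made by RNA polymerase III from a promoter that lies inside the gene, part of it in the stretch that forms the T arm, a short stem closed by a loop. The primary transcript carries a leader and a trailer, and RNase Z cuts off the trailer, which ends in a run of U, before CCA is added to the mature end. Small pieces of tRNAs and of their trailers are found in cells in their own right, and some entered miRNA catalogues as entries. A canonical miRNA is instead cut from a hairpin by Drosha and Dicer, and it finds its targets through its seed, bases 2 to 8.

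The mature sequences are shown first, 5′ to 3′ with the seed in capitals, because the resemblance to tRNA is one of sequence. They are from RefSeq on GRCm38.p6, which held all 3 members and 554 of the 685 listed names.
miR-5100: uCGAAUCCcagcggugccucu
miR-1983: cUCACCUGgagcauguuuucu
miR-1195: uGAGUUCGaggccagccugcuca
The 3 seeds differ from one another, and none was shared by another listed entry with a sequence. Among all 1679 RefSeq mature names the seed of miR-1983 occurred in 1 other name and those of miR-5100 and miR-1195 in 0.

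The tRNA label was borne out by position for miR-1983 only. Its precursor of 132 bases, chr13:21896918-21897049 on the minus strand, encloses the 94 bases of n-TItat14, an isoleucine tRNA gene with the anticodon UAU, at chr13:21896938-21897031. The precursor is printed with the mature miRNA in capitals.
miR-1983 precursor: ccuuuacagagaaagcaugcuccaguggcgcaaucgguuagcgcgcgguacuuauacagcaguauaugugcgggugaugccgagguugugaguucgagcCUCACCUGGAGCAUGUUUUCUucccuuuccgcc
In the tRNA part alone, the capitals mark the acceptor stem, the pair of strands that closes the tRNA fold.
tRNA part: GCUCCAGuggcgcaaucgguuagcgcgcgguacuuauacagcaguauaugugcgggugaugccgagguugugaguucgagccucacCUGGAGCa
All 7 base pairs of that stem were complementary. The mature miR-1983 began at base 100 of the precursor, the first base after the T loop, ran over the last 13 bases of the tRNA gene and continued 8 bases into the trailer. Those 8 bases are the capitals in the last line.
miR-1983 past the tRNA end: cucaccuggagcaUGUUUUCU
The GENCODE M21 annotation listed no other gene over this precursor.

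Neither of the others lay over a tRNA gene. RefSeq placed 430 tRNA genes, and of its 1228 miRNA genes only Mir1983 overlapped one. The nearest tRNA gene to Mir5100 was n-TWcca5, at a distance of 679190 bases, and the nearest to Mir1195 was n-TCgca52, at 738671 bases. The precursor of miR-5100, chr11:60728663-60728726 on the plus strand, starts 265 bases downstream of the start of Mief2, which encodes a protein of mitochondrial fission, and lies in its first intron (chr11:60728568-60730282) in all 3 transcripts that span it. The precursor of miR-1195, chr17:70860503-70860600 on the minus strand, lies opposite an intron of Gm9320, a transcribed processed pseudogene on the plus strand.

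The resemblance of miR-5100 to tRNA was looked for only as short motifs and as T arm pairing. Its mature sequence was not compared with the sequences of the tRNA genes, so longer matches to them are not known. The miR-5100 precursor of 64 bases follows, again with the mature sequence in capitals.
miR-5100 precursor: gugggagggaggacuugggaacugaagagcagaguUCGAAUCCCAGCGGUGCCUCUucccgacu
The motif GUUCGA, which tRNA T arms commonly hold, was searched on both strands. It was found in 7 of 1005 RefSeq precursors (0.697%), among them those of miR-5100 and miR-1983, and in 1 of the 554 listed mature sequences (0.181%), that of miR-1195, where it starts at base 4. The motif UUCGAAU, which overlaps it and closes the loop, was in 3 precursors (0.299%), of which miR-5100 was 1. The stretches that would form the T arm are set side by side, with the 7 loop bases in capitals and 5 bases on each side.
miR-5100 arm: cagagUUCGAAUcccag
miR-1983 arm: gugagUUCGAGCcucac
Counting G-U pairs, all 5 flanking positions could pair in miR-1983, and 3 of 5 in miR-5100. Of the 16 precursors with the loop letters UUCGANN, Mir1983 was the only 1 in which all 5 could pair. The matches describe letters and do not show that the RNA is made as a tRNA. The sequence of miR-1195 was compared with neither tRNA nor repeat sequences.

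**Figure D1:**
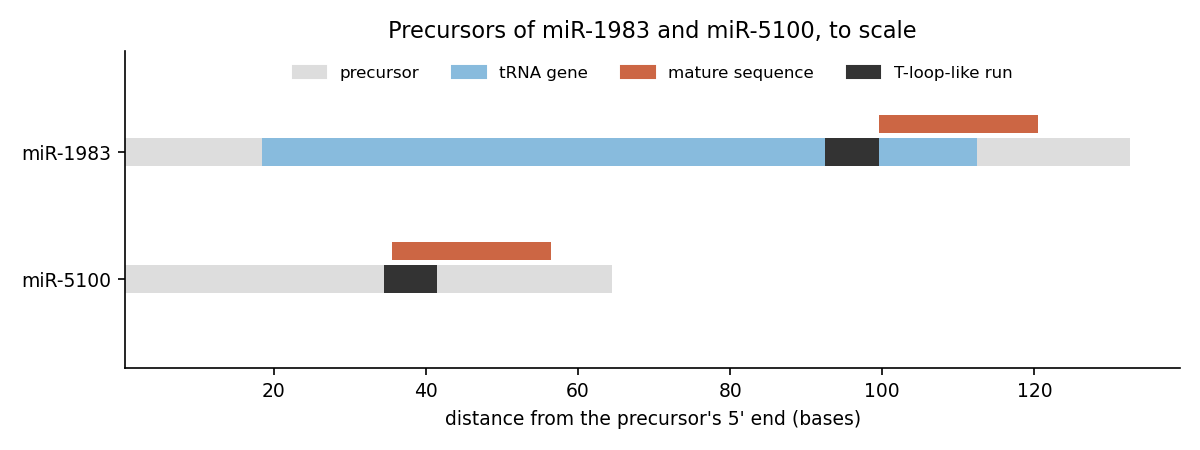
Precursors of miR-1983 and miR-5100 drawn to scale along their length in bases from the 5′ end (x axis), with the tRNA gene, the T-loop-like run of 7 bases and the mature sequence as bars. The mature miR-1983 crosses the end of the tRNA gene by 8 bases, and the mature miR-5100 starts inside its loop-like run.

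The closest listed relative of miR-5100 by sequence was miR-3968, with which it shares the 9 bases CGAAUCCCA, its longest run in common with any of the other listed entries that have a RefSeq sequence.
miR-3968: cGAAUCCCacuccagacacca
The longest run shared with another such entry was 8 bases for miR-1983 and 7 bases for miR-1195. To see how far the sequences recur in promoters, their 12-base words were looked up on both strands in 32817 promoter windows of 300 bases. Matches in the rest of the genome were not counted. Words of miR-1195 were in 94 windows (0.286%), those of miR-5100 in 18 (0.0548%) and those of miR-1983 in 13 (0.0396%), against a median of 12 windows over the 554 listed sequences. Words of miR-1195 were thus in more windows than those of the other members.

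The deposited values are read counts per 1e6 reads (CPM) that the authors scaled further. Each value was a whole number of reads times 1 step per library, which gave back the reads. Libraries held 4306460 to 6058006 reads over the listed entries in DMSO and 3406276 to 4989380 in RSL3. A single read was worth 0.157 to 0.314 CPM. Brackets after a value give its exact 95% Poisson interval, which covers counting error only.

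miR-5100 was several times higher in each RSL3 library than in any DMSO library. DMSO libraries 1 to 3 gave 47, 34 and 69 reads of it, against 424, 195 and 393 from the RSL3 libraries in the same order. All 3 RSL3 libraries were above all 3 DMSO libraries in reads.

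On the CPM scale, the DMSO libraries held 7.37 (5.41 to 9.79), 7.55 (5.23 to 10.5) and 13.6 (10.6 to 17.2) CPM of miR-5100. The RSL3 libraries held 108 (97.7 to 119), 61.2 (52.9 to 70.4) and 78.8 (71.2 to 87.0) CPM. The lowest RSL3 library was 4.51 times the highest DMSO library. Within each group the spread was wider than counting error: DMSO library 3 stood 1.84-fold above DMSO library 1 and RSL3 library 1 stood 1.76-fold above RSL3 library 2, in both cases with intervals that did not meet.

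The group means of miR-5100 were 9.50 ± 3.54 CPM in DMSO and 82.6 ± 23.5 CPM in RSL3 (SD, n = 3 each). The difference was 3.01 ± 0.25 (SE) on the scale of log2(CPM + 1), or 8.03-fold, and it was the largest of all 666 entries tested. The next entry, miR-467e-3p, differed by 1.11, and 99.85% of the entries by less than 4-fold. Among the 685 listed entries miR-5100 stood at places 381 to 454 by level in DMSO and at places 218 to 266 in RSL3. It therefore remained of modest level, at 0.00572% to 0.0108% of the listed reads in RSL3.

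miR-1983, the entry that covers a tRNA end, was at nearly the same level in both groups. DMSO libraries 1 to 3 held 140, 139 and 135 CPM, and the RSL3 libraries 162, 146 and 136 CPM. RSL3 library 1 was the highest and RSL3 library 3 lay within the DMSO range, so the groups overlapped. The means were 138 ± 2.59 and 148 ± 13.0 CPM (SD, n = 3 each), a log2 difference of 0.09 ± 0.12 (SE). With 464 to 895 reads per library, its intervals were narrow: that of RSL3 library 1 ran from 149 to 175 CPM and that of DMSO library 1 from 131 to 150 CPM.

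miR-1195 was close to the limit of detection. DMSO libraries 1 to 3 held 10, 4 and 3 reads of it and the RSL3 libraries 3, 2 and 6, or 17 against 11 reads in all. The group means were 1.02 ± 0.50 and 0.864 ± 0.301 CPM (SD, n = 3 each), where 3 reads amount to 0.470 to 0.941 CPM. It did not reach 1 CPM in 3 libraries and so was not among the entries tested, and a difference between the groups was not detectable at this depth.

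**Figure D2:**
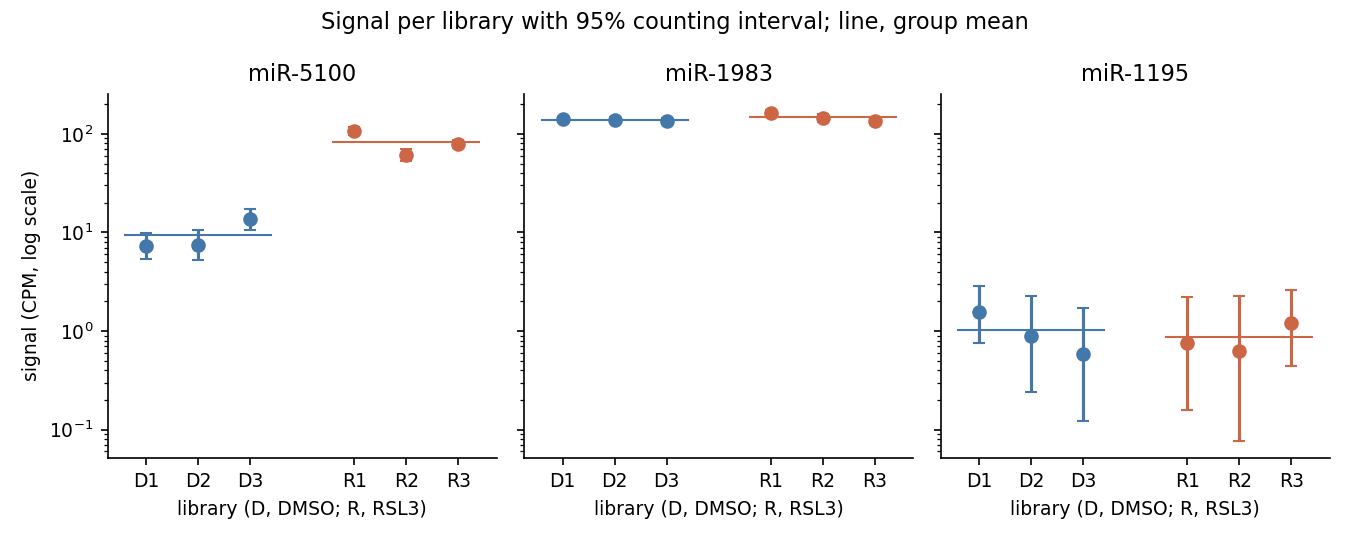
Signal of the 3 entries in each library, in CPM on a log scale shared by the panels, with points for libraries, bars for 95% counting intervals and lines for group means. The RSL3 libraries of miR-5100 sit between 61.2 and 108 CPM, all above the DMSO libraries at 7.37 to 13.6, while the groups overlap for miR-1983 and miR-1195.

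The reads of miR-5100 can also be set against those of miR-1983 in the same library, which uses the same reads on another scale. For every 100 reads of miR-1983 there were 5.25, 5.44 and 10.0 reads of miR-5100 in DMSO libraries 1 to 3 and 66.7, 42.0 and 58.0 in RSL3 libraries 1 to 3. The means were 6.91 ± 2.71 and 55.6 ± 12.5 (SD, n = 3 each). Summed over the 3 members the signal was 147 to 149 CPM in DMSO and 207 to 270 CPM in RSL3. The share of miR-5100 in that sum was 4.94% to 9.09% in DMSO and 29.5% to 39.9% in RSL3, and most of the remainder was miR-1983.

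In the fit over all entries (limma with Benjamini-Hochberg adjustment at 0.05), 2 of the 3 members were tested and 1, miR-5100, was called higher. Of the 666 entries tested 0.601% were called higher and 0.751% in either direction. The groups did not overlap for 1 of the 3 members, against 24.3% of the entries tested. Since miR-5100 was chosen for this contrast, nothing is read from those counts.

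**Figure D3:**
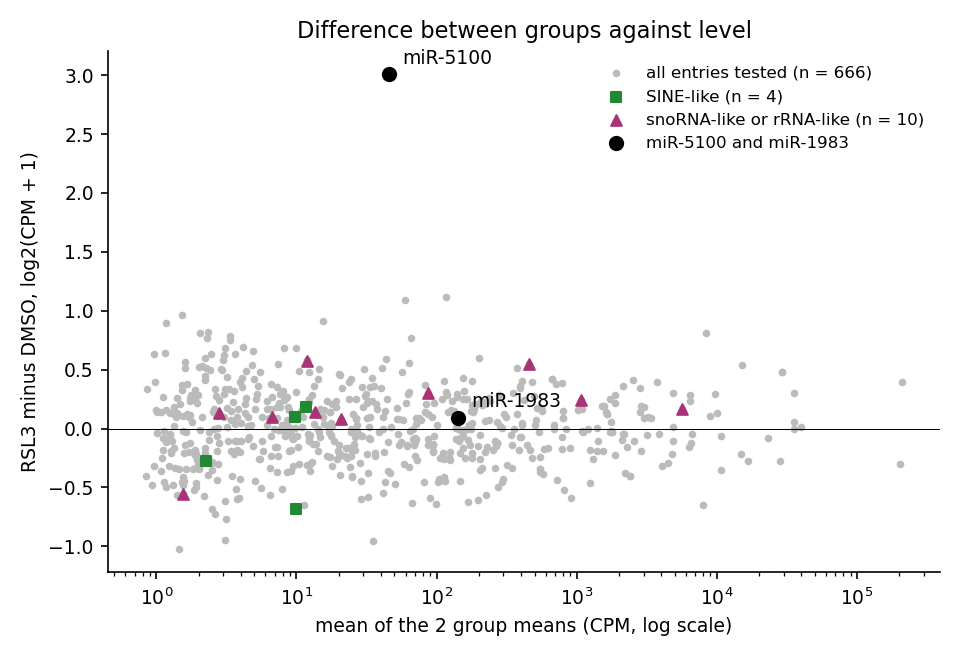
Difference between the group means of log2(CPM + 1), RSL3 minus DMSO (y axis), against the mean level in CPM on a log scale (x axis), with each of the 666 entries tested as a point and the lists in colour. miR-5100 lies at 3.01, apart from every other entry, and miR-1983 at 0.09.

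Other entries thought to resemble RNA of another class were described from 2 lists, which were made by name and not by position. The first held entries like snoRNA, the guides of RNA modification, or like rRNA, and 10 of its 20 names were listed and tested. In limma and in edgeR 0 of the 10 were called, as against 0.751% and 0.901% of all entries tested. At an unadjusted p under 0.05 in limma 2 were higher and 0 lower, where 8.86% and 8.41% of all entries tested were. DESeq2 called 1 higher, miR-3535, and 0 lower. It called 3.93% higher and 4.39% lower (8.31% in all) of the 433 entries to which it gave an adjusted p. Their log2 differences had a median of 0.15 and ran from -0.56 to 0.57, with 9 of 10 positive. Over all entries tested the median was 0.00134 and 50.2% were positive. The 4 most abundant were miR-5099, miR-1839-5p, miR-3535 and miR-3968. By position, the mature sequences of miR-1839-5p, miR-3535 and miR-3968 lay over no RefSeq snoRNA or rRNA gene, and miR-5099 had no RefSeq mature sequence. Group means of miR-5099 were 5299 ± 654 CPM under DMSO and 5956 ± 919 CPM under RSL3 (SD, n = 3 each). For miR-3535 the levels were 373 ± 47.6 and 547 ± 78.3 CPM without overlap (log2 difference 0.55, limma adjusted p = 0.072).

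miR-3968, the entry that shares 9 bases with miR-5100, did not show its step between groups. DMSO libraries 1 to 3 held 83.8, 93.2 and 56.1 CPM, and the RSL3 libraries 70.7, 104 and 114 CPM. The groups overlapped, with a log2 difference of 0.30 ± 0.21 (SE, limma adjusted p = 0.47). DMSO library 3 was the lowest for miR-3968 and the highest DMSO library for miR-5100.

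The second list held entries like SINEs, short interspersed repeats that polymerase III also transcribes, and 4 of its 14 names were listed, all of the miR-3473 family. The entry miR-3473h-5p was not counted, since the list names miR-3473h. In limma and edgeR 0 of the 4 were called, and in DESeq2 0 of the 3 with an adjusted p. At an unadjusted p under 0.05 in limma 0 were higher and 1 lower, miR-3473b, against 8.86% and 8.41% of all entries tested. Their median log2 difference was -0.09. miR-3473a was at 10.8 ± 0.63 CPM in DMSO and 12.7 ± 3.59 CPM in RSL3, miR-3473b at 12.7 ± 4.19 and 7.20 ± 0.18, and miR-3473d at 9.29 ± 0.37 and 10.2 ± 2.49 (SD, n = 3 each). For miR-3473e, the lowest of the 4, the levels were 2.65 ± 1.53 and 1.85 ± 0.53 CPM. The first 3 had DMSO means of 9.29 to 12.7 CPM, beside 9.50 CPM for miR-5100. The log2 differences of the 4 ran from -0.68 to 0.18.

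The entries whose profile over the 6 libraries was most like that of miR-5100 were, in order, the pair miR-467e-3p and miR-467c-3p, from introns of Sfmbt2, followed by miR-215-5p. Likeness was the root mean square gap between log2(CPM + 1) profiles, each centred on its own DMSO mean, over 415 entries with a mean of at least 10 CPM. The gaps were 1.34, 1.37 and 1.54, against a median of 2.17. In profiles centred this way most of the gap is the gap between log2 differences, so for miR-5100 this order restates the contrast it was chosen for and is a description only. For miR-467e-3p, DMSO libraries 1 to 3 held 55.2, 66.8 and 98.0 CPM and the RSL3 libraries 207, 131 and 138. As with miR-5100, DMSO library 3 and RSL3 library 1 were the highest of their groups and RSL3 library 2 the lowest of its own. This order did not hold for all the like entries. In miR-467c-3p the same libraries were highest, but RSL3 library 3 was the lowest of its group. In miR-215-5p DMSO library 2 was the highest of its group and RSL3 library 1 the lowest of its own. For miR-1983 the nearest were miR-30c-5p, miR-466i-3p and miR-744-5p, at gaps of 0.066 to 0.076, and their log2 differences were 0.14, -0.00502 and 0.12. For miR-1195, whose profile rests on 2 to 10 reads per library, the nearest were miR-25-3p, miR-8103 and miR-1198-5p, at gaps of 0.12 to 0.17.

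**Figure D4:**
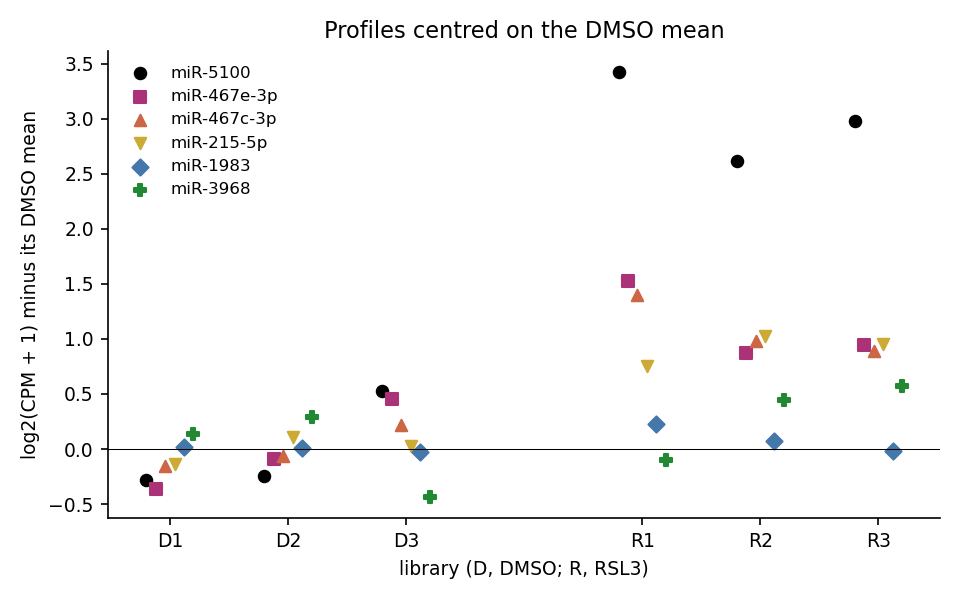
Level in each library as log2(CPM + 1) minus the entry's DMSO mean (y axis) for miR-5100, the 3 entries most like it, miR-1983 and miR-3968. In the RSL3 libraries miR-5100 stands above the 3 entries most like it, whose own differences are 0.91 to 1.11, and miR-1983 stays near 0.

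Markers among the miRNAs were described for the labelled cell type and for others. Their presence does not by itself establish a cell type. All 7 neuron markers were present, led by miR-7a-5p, with the summed level at 198303 to 272928 CPM in DMSO and 169753 to 218196 CPM in RSL3. DMSO means of miR-128-3p, miR-124-3p, miR-138-5p and miR-137-3p were 2156, 148, 82.7 and 75.8 CPM, so these add little to the sum. Of the 7 log2 differences 3 were positive and 4 negative. The groups did not overlap for 1 of the 7, which was lower in RSL3, against 24.3% of all entries tested in either direction. The summed glial markers, mostly miR-23a-3p, were at 796 to 892 CPM in DMSO and 969 to 1153 CPM in RSL3. That sum mainly follows miR-23a-3p, with means of 685 CPM in DMSO and 897 CPM in RSL3 (log2 difference 0.38). Means of miR-219a-2-3p were 139 and 144 CPM (0.05), and those of miR-219a-5p 3.19 and 3.82 CPM (0.23). The lowest log2 difference of the list was -0.06. The sum is therefore not read as a change in glial markers in general. Taken singly, the groups did not overlap for 1 of the 4 glial markers, against 24.3% of all entries tested, and 3 of the 4 log2 differences were positive. Of 6 blood and immune markers 3 were listed, at 64.6 to 91.3 and 65.3 to 124 CPM, and the liver and serum marker miR-122-5p was at 1.41 to 3.54 and 2.41 to 5.96 CPM. The 3 muscle markers summed to 105 to 193 and 68.8 to 129 CPM. Among them miR-1a-3p had a DMSO mean of 129 CPM, beside 148 CPM for the neuron marker miR-124-3p. The summed snoRNA-like and rRNA-like entries were at 6145 to 7471 and 6843 to 8624 CPM. The part of these in the miR-5100 result was not tested, and in bulk RNA a change in the number of cells of a type and a change in RNA per cell cannot be told apart.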

How the data were processed

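Small RNA was sequenced from 6 libraries, with inserts of 15 to 35 nt and 50 cycles, per the labels' protocols. The submitters' processing notes name cutadapt, Bowtie and edgeR, with the build GRCm38. Versions, the miRNA release and the handling of reads that match several places, which matters for tRNA-like entries, were not given in the sources used here. Values were deposited as a signal that the authors named CPM. It summed to 949375 to 1068892 per library, so it was treated as scaled CPM. Reads were recovered from its steps: 100% of values were whole to within 0.01.

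The test was limma 3.58.1 in R 4.3.3 on log2(CPM + 1) with a variance trend, two-sided, with no covariate, over the 666 entries at 1 CPM or more in at least 3 libraries. Fold changes on this scale understate those of low entries. Alternatives were count tests on the recovered reads (edgeR 4.0.16, by quasi-likelihood, and DESeq2 1.42.0), other pseudocounts, filters, scalings and variance models, a block for the replicate number, and each library left out in turn. Members and lists were chosen with earlier results of these data known. Named entries are the members, called entries and the 4 most abundant of each of 2 lists, entries holding 1 of 2 motifs, the 3 most like each member, and the neighbours of miR-5100 by difference. Positions are 1-based on GRCm38, from RefSeq and GENCODE M21.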

Additional observations from a re-analysis of the deposited data

How the results depend on the processing

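The log2 difference of miR-5100 was 2.59 (pseudocount 5) to 3.13 (DESeq2), or 2.80 to 3.27 with 1 library fewer. It was called higher, with the largest difference of all entries tested, in each of the 18 alternatives. Since miR-5100 was chosen for this contrast and the alternatives reuse the same libraries, nothing is read from those calls or that rank. miR-1983 was positive and not called in all 18, at 0.03 to 0.15. miR-1195, at -0.10, ran from -0.25 to 0.09 when a library was left out and was positive only without DMSO library 1. The count of entries called higher, 4 as reported, was 2 in plain CPM, 1 without a variance trend, 17 in DESeq2 (which gave 233 entries no adjusted p), and, with 1 library fewer, 1 to 14 (2, 1 and 4 without DMSO libraries 1, 2 and 3, and 8, 14 and 2 without RSL3 libraries 1, 2 and 3). The count called lower, 1 as reported, was 3 with a 10 CPM filter, 0 with median centring, 12 after rescaling without the 5 most abundant entries, 2 in edgeR, 0 without a variance trend, 19 in DESeq2, and, with 1 library fewer, 0 to 12 (1, 0 and 0, and 12, 5 and 0, in the same order). The cause was not tested. Deviations from the group means correlated across entries at -0.35, -0.33 and -0.19 for equal replicate numbers, and at 0.04 to 0.30 for unequal ones. Deviations from a mean of 3 libraries offset one another within a group. These correlations therefore cannot decide whether equal numbers shared a culture or a preparation. With the replicate number as a block 1 entry, miR-5100, was called higher and 0 lower. The labels give groups of 3, too few for a test of single outlying libraries. Depth limits miR-1195 most, at 2 to 10 reads per library.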

Other observations

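Among the DMSO libraries miR-1983 had the smallest spread of all 666 entries tested, with an SD of 0.027 on the log2 scale against a median of 0.20. Its DMSO values, 135 to 140 CPM, lay closer together than their counting intervals are wide (131 to 150, 128 to 150 and 125 to 146 CPM). So small an SD can come from counting error, and nothing is read from this rank. In RSL3 libraries the SD of miR-1983 was 0.12, and 26.4% of the entries had a smaller one. miR-5100 was among the more variable entries in both groups, with SDs of 0.45 in DMSO and 0.40 in RSL3, where 91.7% and 83.6% of the entries had a smaller one. No other listed entry had reads within 10% of those of miR-5100, miR-1983 or miR-1195 in all 6 libraries.

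Mature sequences of 5 listed entries lay over RefSeq snoRNA genes, where 1, miR-1983, lay over a tRNA gene. They were chosen after their values were seen. The log2 difference was 0.68 for miR-1291 over Snora34 (2.17 CPM in DMSO and 4.01 CPM in RSL3 on average, limma adjusted p = 0.23), 0.13 for miR-5121 over Snord33, and 0.10 and 0.14 for miR-664-5p and miR-664-3p over Snora36b. The fifth, miR-3084-5p over Snora19, did not pass the filter on low values and was not tested. Other listed entries lay over genes that RefSeq classes as guide RNA. These were miR-1843a-3p and miR-1843a-5p (Scarna3b), miR-1843b-3p and miR-1843b-5p (Scarna3a), and miR-3069-3p (Scarna13). Their log2 differences, in that order, were 0.50, -0.14, 0.14, -0.15 and 0.26.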
